A study of Mus musculus with 55 samples.

Results

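Pancreatic islets are the clusters of hormone-secreting cells, most of them insulin-producing β cells, that control blood glucose. The series profiled islets of male C57B6/J mice in which Eed, a core subunit of the Polycomb repressive complex PRC2 that places the silencing mark H3K27me3, was deleted in β cells (βEedKO). Of 55 samples in the series, 16 were bulk RNA-seq libraries of whole islets, and 9 of these came from mice 8 weeks old: 3 wild type (WT), 3 heterozygous (HET) and 3 Eed -/- (KO). Within these 9 libraries 2 kinds of islets stood far apart, and the division cut across WT and KO. Libraries with an Ifit1 level of at least 100 CPM (reads scaled to a common library total), where Ifit1 is an RNA-binding antiviral protein induced by interferon, were taken as interferon-high, and those below as interferon-low. Of the 9 libraries, 4 were interferon-high, namely WT replicates 3 and 4 and KO replicates 4 and 5, and 5 were interferon-low, namely WT replicate 1, KO replicate 1 and HET replicates 1, 2 and 3.

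All mice shared the C57B6/J background, and none had a treatment named in the labels. The KO mice carried loxP-flanked Eed alleles and a Cre transgene driven by the rat insulin promoter, so the deletion was confined by design to insulin-expressing cells, whereas the RNA came from whole islets with every cell type they hold. Islets were released with collagenase, purified on a density gradient, picked by hand and lysed for RNA, and each replicate held the islets of 1 or 2 mice. The paper's isolation protocol also describes culture of the picked islets in medium, whereas its RNA protocol has purified islets lysed directly. Whether and how long the islets of these libraries were cultured is not stated. The labels give no litter, culture batch or date, so such a batch and the interferon class cannot be told apart. No HET library was interferon-high, and each of WT and KO contributed 2 high libraries and 1 low library. The contrast between the classes therefore rested on WT and KO, with genotype as a covariate, and its low side on WT replicate 1 and KO replicate 1.

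Interferons are secreted alarm proteins. Type I interferons bind a receptor that activates the kinases JAK1 and TYK2, which phosphorylate transcription factors of the STAT family, and these join IRF9 in a complex that binds interferon-stimulated response elements (ISRE) near the start of responding genes. The products of those genes block viral replication, sense foreign nucleic acids, raise antigen presentation and recruit immune cells. In islets the pathway is known for its link to viral infection and to autoimmune diabetes.

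The difference in Ifit1 that defined the classes was very large. On the scale of the rule, CPM of the total count, Ifit1 was 1248 and 1417 in WT replicates 3 and 4, and 2140 and 2149 in KO replicates 4 and 5. It was 5.67 in WT replicate 1, 4.77 in KO replicate 1, and 2.60, 4.41 and 3.77 in the 3 HET libraries. The threshold of 100 CPM lay in an empty interval, with 5.67 the value just below it and 1248 the value just above. At 25 weeks no library of the series reached it. Because Ifit1 chose the classes, all differences between them are given as a description, with the log2 difference (high minus low, genotype as covariate), its standard error and no p-value. Levels are CPM scaled by TMM factors, which differ slightly from the values of the rule.

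**Figure D1:**
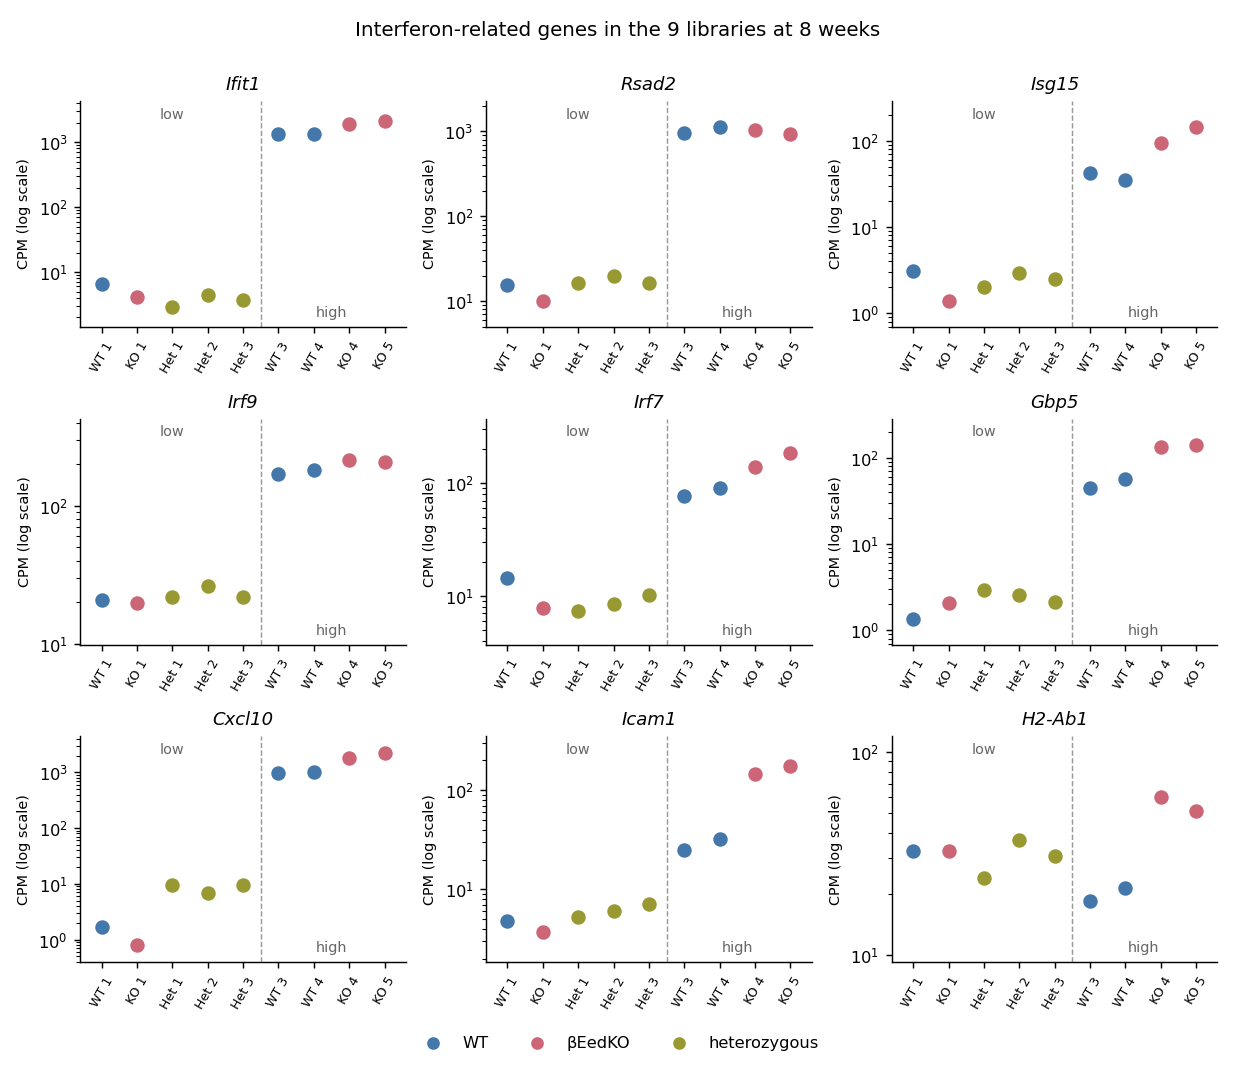
Expression of 9 genes in each of the 9 libraries at 8 weeks, in TMM-scaled CPM on a log axis, with interferon-low libraries on the left and interferon-high libraries on the right of each panel and 1 point per library. Ifit1 lies between 2.86 and 6.64 CPM in the low libraries and between 1323 and 2144 CPM in the high libraries, whereas H2-Ab1 overlaps between the classes.

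The sequences just upstream of several of the most induced genes held letters of the ISRE. The ISRE letters searched were GAAA, any 2 bases and GAAA again, on either strand and with overlapping matches allowed, within the 250 bases before and 50 bases after the RefSeq start of each gene (GRCm38.p6). The stretches below belong to 6 interferon-induced genes counted as higher in the interferon-high libraries, written 5′ to 3′ on the gene's strand, in lower case with the matched letters in capitals. All lie upstream of the annotated start.
Ifit1, chr19:34640765-34640833, plus strand: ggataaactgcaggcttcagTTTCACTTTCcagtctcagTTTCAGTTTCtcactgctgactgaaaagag
Ifit3, chr19:34583353-34583436, plus strand: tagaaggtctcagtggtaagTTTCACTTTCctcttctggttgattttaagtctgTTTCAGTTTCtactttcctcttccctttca
Cxcl10, chr5:92349073-92349122, minus strand: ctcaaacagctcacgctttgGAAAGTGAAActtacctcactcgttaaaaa
Rsad2, chr12:26456543-26456592, minus strand: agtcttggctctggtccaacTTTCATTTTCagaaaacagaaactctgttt
Isg15, chr4:156200855-156200916, minus strand: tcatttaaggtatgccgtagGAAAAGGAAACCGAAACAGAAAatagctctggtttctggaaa
Ifi205, chr1:174031860-174031909, minus strand: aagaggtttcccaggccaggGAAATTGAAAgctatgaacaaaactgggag
Ifit1 and Ifit3 each carried 2 separate matches, and Isg15 carried 3 that overlap in a single run. Ifit3b, a near copy of Ifit3 at chr19:34607749-34607832, had the same 84 of 84 bases in this stretch. Ifi205 had a second match in its window, 23 bases after the RefSeq start, which is not shown. No match was found in the windows of Il6 and Ifit2, also among the largest differences, nor in those of Irf7, Icam1 and Ifnb1. Isg15 was shown for its place in the pathway, after its values were seen.

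The letters were far more frequent in front of these genes than elsewhere. A promoter window was matched to 114 interferon-list genes counted as higher, and 45 of them held the letters (39.5%, Wilson 95% interval 31.0 to 48.6). Over all 12953 tested genes with a window the share was 3.74%. Among the genes that were higher without being in an interferon list it was 5.41% (53 of 980), and among the lower genes it was 2.87% (37 of 1288). A match describes letters in a window and does not show a bound site, and membership of the interferon lists comes from background knowledge rather than from these libraries.

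A gene was counted as higher when its fitted log2 difference was at least 1, its mean was at least 1 CPM in the higher class, and the high libraries lay above the low libraries within WT and within KO, and as lower by the mirror rule. Of 19271 genes tested, 1513 (7.85%) were counted as higher and 1865 (9.68%) as lower. The counts of each gene list below can be read against these shares. The median log2 difference of all genes tested was -0.14. The stricter separation, with all 4 high libraries above all 5 low libraries, held for 1121 of the 1513 higher genes and for 13.2% of all genes tested. All 4 high libraries lay below all 5 low libraries for 1103 of the 1865 lower genes and for 14.3% of all genes tested. In whole-islet RNA, fewer cells of a type and less RNA per cell cannot be told apart.

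Genes of the interferon, antigen-presentation and cytokine lists made up 147 of the higher genes and 1 of the lower genes, out of 202 list genes tested. They were 9.72% of the higher genes by number but carried the larger differences. Their median log2 difference was 2.99, against 1.49 for the 1366 higher genes in no such list, and 113 of the 147 differed by over 4-fold. The lists are not complete, so these shares depend on them. Ch25h, known as interferon-induced, and Ifi211, of the family of Ifi205, were counted outside them. No reads were found in WT 1 and KO 1 for 12 of the 1513 higher genes, Il6 and Gbp10 among them, so their fitted differences depend on the prior count and bounds are given instead. Another 27 higher genes had 1 to 3 reads there, and their fitted differences rest on few reads. All 4 high libraries lay above all 5 low libraries for 137 of the 147.

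**Figure D2:**
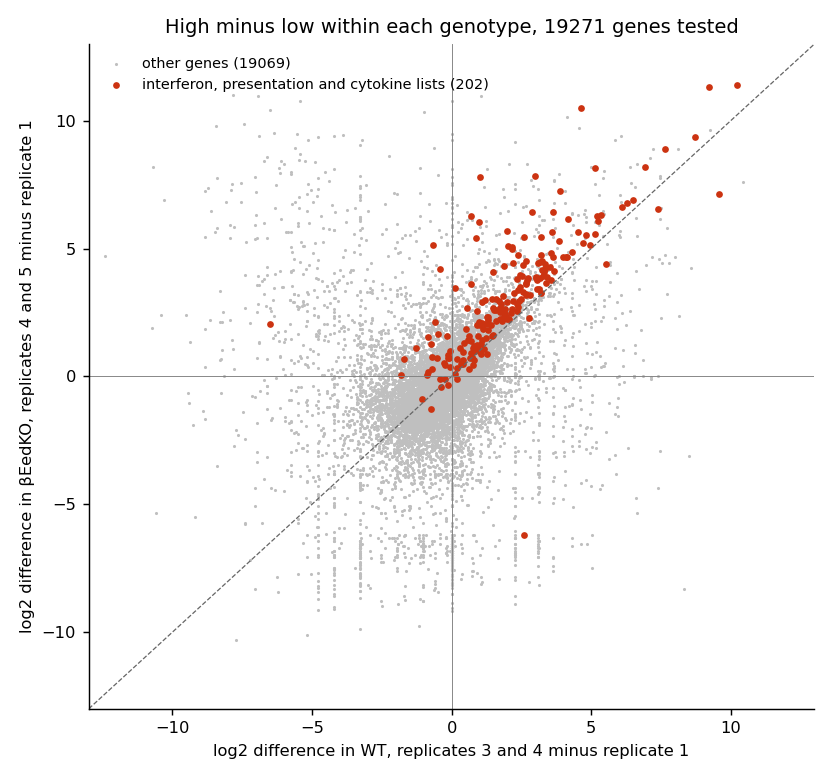
Log2 difference between high and low libraries within WT (x axis) against the same difference within KO (y axis), 1 point per gene, with 202 interferon-list genes in red and 19069 other genes in grey. Interferon-list genes spread along the diagonal in the upper right, and genes with no reads in a class form straight lines of points.

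The ligands were nearly silent in both classes. Of 20 type I and type III interferon genes only Ifnb1, the interferon made first on sensing of nucleic acids, had enough reads to be tested. Ifnb1 was 3.40, 0.931, 3.57 and 6.75 CPM in the high libraries WT 3, WT 4, KO 4 and KO 5. It was 0.0620 in WT 1 and 0.139 in KO 1, but 1.36, 1.17 and 0.605 in the HET libraries, so the classes overlapped once HET was included. Its log2 difference was 5.08 ± 0.83 (SE). Ifng, the type II interferon of T and NK cells, had 1 read over the 5 low libraries and 9 reads over the 4 high libraries, all in KO replicate 4, and was not tested.

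Of the 6 receptor chains only Ifngr2, the signalling chain of the type II receptor, was counted as higher. It was 60.3, 57.2, 64.0 and 68.2 CPM in the high libraries and 11.4 to 17.8 in the low libraries, a 3.94-fold difference with no overlap. Ifnar1, a chain of the type I receptor, differed by 0.44 ± 0.13 on the log2 scale and was below the threshold.

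The transducers of the signal were higher as a group, with 12 of 17 genes counted as higher, none as lower and a median log2 difference of 1.45. Irf9, a DNA-binding subunit of the complex that binds the ISRE, was 171, 180, 214 and 208 CPM in the high libraries and 19.7 to 26.2 in the low libraries (9.45-fold). Stat2, which transactivates in the same complex, was 170, 229, 227 and 251 CPM against 26.5 to 35.1 (7.94-fold). Both were separated without overlap. Irf7, which amplifies type I interferon production, was 77.4, 91.3, 138 and 186 CPM against 7.42 to 14.3 (10.3-fold). The brakes Socs1 (9.36-fold) and Usp18 (10.7-fold) were higher as well. Irf3, a transcription factor activated by the nucleic acid sensors, was on the lower side at -0.98 ± 0.14 on the log2 scale, just short of the threshold, and Tyk2 differed by -0.24 ± 0.21. Irf1 was the case where HET changed the picture: it was 253 to 527 CPM in the high libraries, 56.0 and 53.9 in WT 1 and KO 1, and 313, 240 and 319 in HET.

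Among the nucleic acid sensors 9 of 13 were counted as higher and 1 as lower, with a median log2 difference of 1.90. Ddx58 (RIG-I), a cytosolic sensor of viral RNA, was 273, 324, 332 and 293 CPM in the high libraries and 17.8 to 23.3 in the low libraries (15.0-fold). The related sensors Ifih1 (MDA5, log2 2.93 ± 0.18) and Dhx58 (LGP2, 3.50 ± 0.36) and the endosomal receptor Tlr3 (2.67 ± 0.22) were also higher without overlap. Mavs, the mitochondrial adaptor that relays the signal of RIG-I and MDA5, was the only list gene counted as lower: it was 12.8, 15.0, 8.91 and 6.83 CPM in the high libraries and 18.9 to 38.4 in the low libraries (2.01-fold lower). Mavs passed the threshold narrowly, at -1.01 on the log2 scale. The share of the list that was counted as lower, 1 of 13, can be read against 9.68% of all genes tested.

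The antiviral effectors held the largest group. Of 81 tested, 64 were counted as higher and none as lower, with a median log2 difference of 2.31, and 63 of the 64 were separated over all 9 libraries. Rsad2 (viperin), which makes a chain-terminating nucleotide, was 954, 1139, 1042 and 932 CPM in the high libraries and 9.93 to 19.9 in the low libraries (81.7-fold). Ifit3 was 355 to 540 CPM against 1.16 to 4.71 (92.7-fold), although reads of Ifit3 and its near copy Ifit3b may have been divided between them. Mx1, a GTPase that restricts viruses, was 54.5 and 72.7 CPM in the high WT libraries and 172 and 195 in the high KO libraries. Its low values were 0.693 to 1.36 CPM except in KO 1, at 8.64. Parp14, an ADP-ribosyltransferase, was 19.8-fold higher and Tnfsf10 (TRAIL), a death ligand, was 12.5-fold higher. Of the 81 genes 5 had a difference below 0, the lowest Plac8 at -4.11 ± 2.48, which was 75.5 CPM in WT 1 and 51.6 in KO 4 and at most 6.74 elsewhere. Not all members of the list were separated: Ly6e, Samhd1, Ifitm2 and Ifi27 overlapped between the classes. Isg15, a ubiquitin-like protein, was 42.0, 34.8, 94.1 and 145 CPM against 1.39 to 3.10 (28.7-fold), and 4 of the 6 genes of its conjugation system were counted as higher.

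The interferon-induced GTPases, which attack the vacuoles of intracellular pathogens, had a median difference of 4.31 on the log2 scale, the highest among the lists with more than 1 tested gene, and 17 of 18 tested were counted as higher. Gbp5 was 45.4, 57.6, 136 and 143 CPM in the high libraries and 1.36 to 2.93 in the low libraries (51.5-fold), and Irgm1 was 359 to 722 against 15.0 to 25.4 (22.9-fold). Gbp10 had no reads in WT 1 and KO 1 and was at least 48.3-fold higher against a floor of 3 reads over those 2 libraries. Members of this family are close in sequence, so the share of reads assigned to each is uncertain.

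Antigen presentation divided by class of MHC molecule. For MHC class I, which shows cytosolic peptides to CD8 T cells, 17 of 24 genes were counted as higher and none as lower (median log2 1.46), and all 17 were separated over the 9 libraries. The peptide transporter Tap1 was 104, 129, 206 and 212 CPM against 13.2 to 21.1 (8.92-fold), the light chain B2m was 197 to 577 against 45.4 to 151 (3.12-fold), and the immunoproteasome subunits Psmb8 and Psmb9 were higher by 2.25 ± 0.34 and 1.77 ± 0.28 on the log2 scale. For MHC class II, which professional antigen-presenting cells use, none of 7 genes was counted in either direction and the median log2 difference was -0.02. H2-Ab1 was 18.4, 21.4, 59.9 and 51.2 CPM in the high libraries and 23.8 to 37.1 in the low libraries, below all low libraries in WT and above all of them in KO.

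Chemokines and cytokines included the largest difference of any gene with reads in every library. Cxcl10, which attracts T cells, was 979, 1017, 1816 and 2222 CPM in the high libraries, 1.67 and 0.785 in WT 1 and KO 1, and 9.46, 6.72 and 9.61 in HET (log2 10.17 ± 0.60). In all, 15 of 20 genes of the list were counted as higher and none as lower (median log2 3.61). Il6 had no reads in WT 1 and KO 1 and 7.29 to 19.99 CPM in the high libraries, at least 174-fold higher against the floor of 3 reads in those libraries, while the HET libraries had 0.0680, 0.823 and 1.08 CPM. Cd274 (PD-L1), a brake on T cells, was 107, 140, 202 and 165 CPM against 8.68 to 28.7 (14.3-fold). The inflammatory cytokines Tnf and Il1b behaved like Irf1. Tnf was 9.88 to 29.5 CPM in the high libraries, 2.11 and 1.48 in WT 1 and KO 1, and 15.7, 14.6 and 17.5 in HET.

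NF-kB is the transcription factor of inflammatory signalling, and its targets include feedback inhibitors. Of 10 such genes, 8 were counted as higher (median log2 2.61) and 6 of the 8 were separated over all libraries. Tnfaip3 (A20), an inhibitor of NF-kB, was 86.5, 95.8, 227 and 187 CPM in the high libraries and 16.8 and 18.2 in WT 1 and KO 1, whereas the HET libraries had 254, 126 and 215. Icam1, an adhesion molecule for leukocytes, was low in all 5 low libraries (3.69 to 7.19 CPM) and was 25.1, 32.0, 145 and 175 in the high libraries (14.4-fold). For Tnfaip3, Nfkbia, Irf1 and Tnf the high libraries were therefore set apart from WT 1 and KO 1 but not from HET, whereas Ifit1, Irf9, Rsad2 and Icam1 were set apart from all 5.

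**Figure D3:**
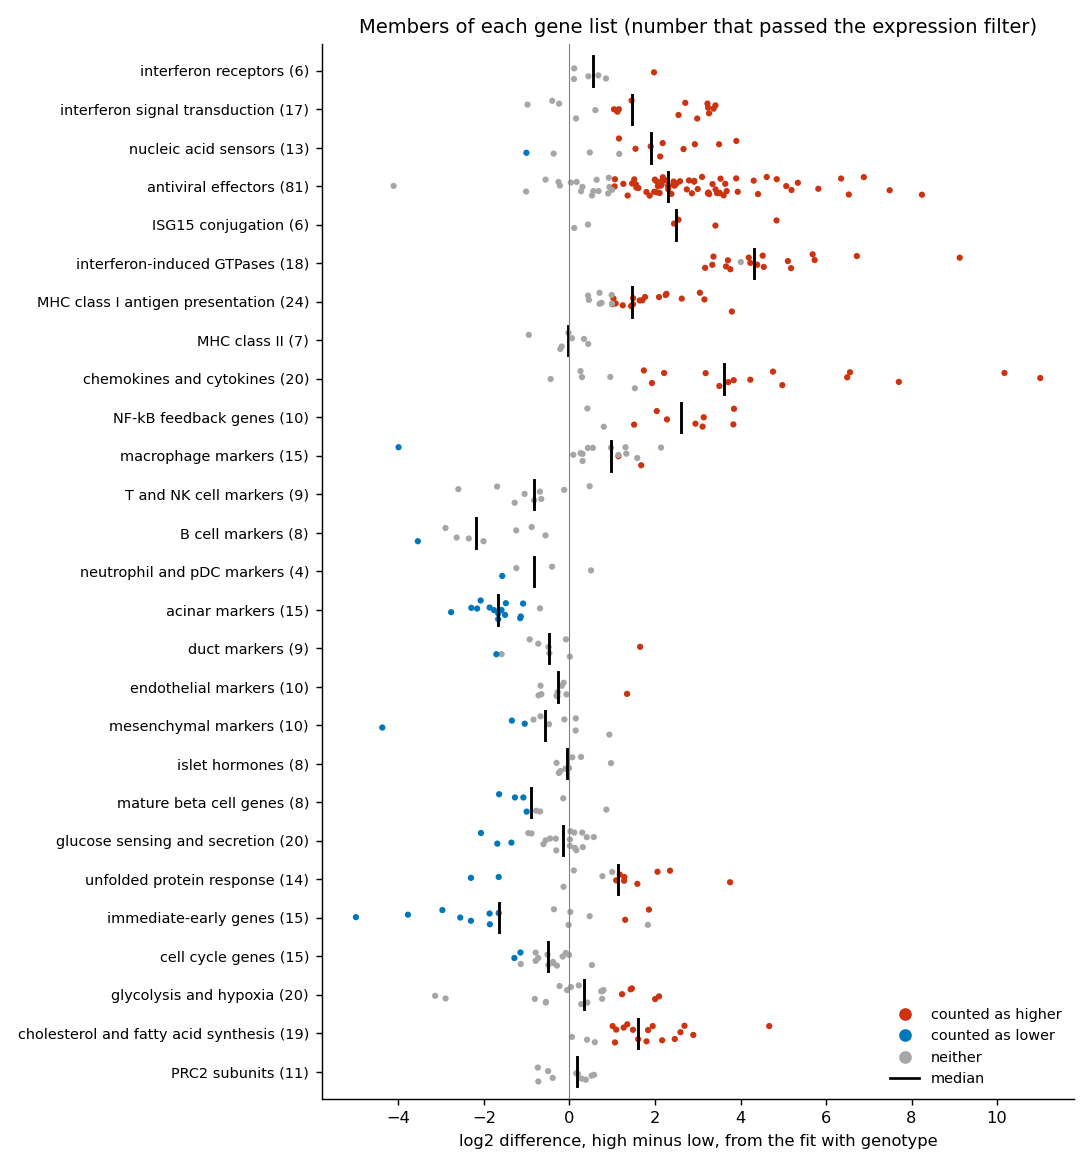
Log2 difference between interferon-high and interferon-low libraries for the tested members of each gene list, 1 point per gene with the list median as a bar. Only lists with more than 1 tested gene are drawn, and of these the interferon-induced GTPases have the highest median (4.31) and the immediate-early genes and acinar markers have medians near -1.7.

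The higher genes outside the interferon lists numbered 1366, and 984 of them were separated over all 9 libraries. The 15 with the largest fitted differences included genes of inflammation and acute-phase response. Stx11, a syntaxin of cytotoxic granule release, was 24.9, 33.3, 84.0 and 80.0 CPM in the high libraries and 0.6 to 1.68 in the low libraries (log2 6.21 ± 0.55). Fgb, the fibrinogen β chain, was 7.71, 5.84, 20.4 and 18.1 CPM against 0.0672 to 0.260 (5.61 ± 0.55). Acod1, which makes itaconate in activated macrophages, was 12.7, 4.70, 13.1 and 58.4 CPM against 0.0462 to 0.607 (7.89 ± 1.23). Ptgs2 (COX-2), the inducible enzyme of prostaglandin synthesis, was 5.95, 5.53, 37.2 and 20.2 CPM against 0.0620 to 1.73 (7.65 ± 0.52), Mmp13, a collagenase, was 8.53 to 25.2 against 0.496 to 2.62 (4.95 ± 0.47), and Nptx2, a neuronal pentraxin, was 9.62 to 72.5 against 0.496 to 2.99 (4.92 ± 0.47). For these 6 genes every high library lay above every low library, and both high KO libraries lay above both high WT libraries. In WT 1 and KO 1 Acod1 had 2 and 1 reads and Ptgs2 had 1 and 2, so their fitted differences rest on few reads. Ptgs2 in the HET libraries was 1.41 to 1.73 CPM.

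Some of the largest fitted differences rested on few libraries. Saa3, an acute-phase apolipoprotein, was 23.5 and 376 CPM in the high KO libraries but 0.0567 and 0.259 in the high WT libraries, against 0 to 0.231 in the low libraries. Ereg, an EGF receptor ligand, was 25.9 CPM in KO 4, 2.36 in KO 5 and at most 0.155 elsewhere. Ucp1, the uncoupling protein of brown fat, was 44.5 CPM in WT 3 and 842 in the low library HET 2, and at most 2.18 in the other 7 libraries. HET 2 also had 8273 CPM of Scd1 against 14.1 to 407 in the other libraries. Saa3 and Ucp1 were counted as higher by the rule within WT and KO, but their classes overlapped over the 9 libraries.

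Among the 15 higher genes outside the interferon lists with the largest differences, 10 windows were read and 4 held the ISRE letters, those of Saa3, Gm12185, Ifi211 and Mmp13. Over all higher genes outside the lists with a window the share was 5.41% (53 of 980), against 3.74% of all genes tested. The Gm12185 match lies before its RefSeq start but inside the gene as annotated by Gencode, and is not shown. The stretches of Saa3, Ifi211 and Mmp13 lie upstream of the annotated start of the gene and are shown as above, to set beside those of the interferon lists.
Saa3, chr7:46715772-46715821, minus strand: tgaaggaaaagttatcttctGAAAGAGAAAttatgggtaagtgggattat
Ifi211, chr1:173913054-173913103, minus strand: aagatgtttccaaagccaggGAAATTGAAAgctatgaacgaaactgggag
Mmp13, chr9:7272348-7272397, plus strand: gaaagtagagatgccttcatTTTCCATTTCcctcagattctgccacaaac
The Ifi211 stretch shared 46 of 50 bases with that of Ifi205 above, and the 2 genes belong to the same family of DNA-binding proteins. Ifi211 was 6.4, 5.27, 10.5 and 12.7 CPM in the high libraries and 0 to 0.248 in the low libraries.

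Enzymes of cholesterol and fatty acid synthesis were the list outside the interferon lists with the most genes counted as higher. Of 19 genes 16 were counted as higher and none as lower, with a median log2 difference of 1.61. Over all genes tested 7.85% were counted as higher and 9.68% as lower. Hmgcs1, an early enzyme of the mevalonate pathway, was 397, 320, 331 and 316 CPM in the high libraries, 69.1 and 55.1 in WT 1 and KO 1, and 231, 255 and 282 in HET (5.51-fold by the fit). Idi1 and Sqle, later enzymes of the pathway, were higher by 2.90 ± 0.19 and 1.95 ± 0.16 on the log2 scale. Ch25h, which hydroxylates cholesterol and is itself known as interferon-induced, was 1.70, 1.71, 3.72 and 2.19 CPM against 0.0462 to 0.260. Separation over all 9 libraries held for 9 of the 16, and for 13.2% of all genes tested. For the other 7, Insig1, Fdps, Lss, Fasn and Scd1 among them, some HET libraries reached the range of the high libraries, and the summed level of the list was 14914 CPM in HET 2 against 4317 to 5215 in the high libraries.

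Chaperones of the endoplasmic reticulum and part of the stress-response genes were higher, and other stress regulators were not. Of 14 genes of the unfolded protein response 8 were counted as higher and 2 as lower (median log2 1.13), against 7.85% and 9.68% of all genes tested. Dnajb9, a co-chaperone, was 697, 555, 521 and 506 CPM in the high libraries and 134 to 228 in the low libraries (4.17-fold), and Hspa5 (BiP) was 4128 to 5563 against 1385 to 3403 (log2 1.59 ± 0.21). Trib3, a pseudokinase target of ATF4, was 26.7 to 54.6 CPM against 2.26 to 25.1 (13.5-fold by the fit). Atf4 itself, Chac1 and Asns were counted as higher as well. Txnip, which is glucose-responsive and restrains thioredoxin, was lower at 189, 137, 82.6 and 80.8 CPM against 318 to 754 (4.94-fold), and the transcription factor Atf3 was lower by 1.66 ± 0.31 on the log2 scale. Herpud1 and Ppp1r15a were not counted in either direction.

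**Figure D4:**
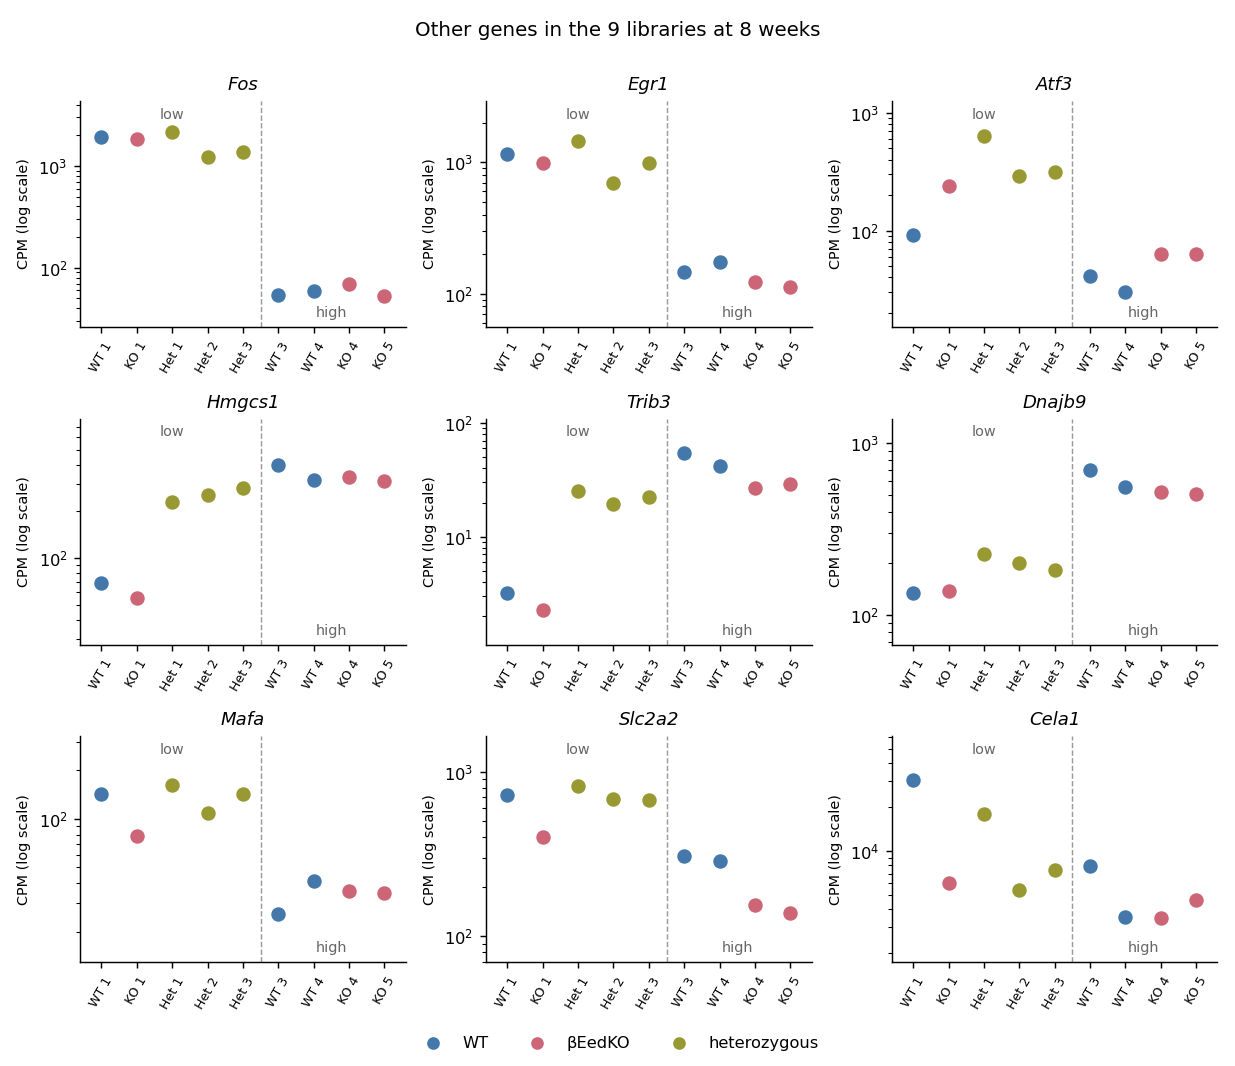
Expression of 9 genes outside the interferon lists in each of the 9 libraries, in TMM-scaled CPM on a log axis, drawn as in the plot of interferon genes. Fos lies between 52.4 and 69.2 CPM in the high libraries and between 1231 and 2170 CPM in the low libraries, while Cela1 overlaps between the classes.

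The clearest difference on the lower side was in immediate-early genes, whose transcripts appear within minutes of a stimulus. Of 15 genes 8 were counted as lower and 2 as higher, with a median log2 difference of -1.66, and all 8 lower genes were separated over the 9 libraries. The shares over all genes tested were 9.68% counted as lower and 14.3% with all high libraries below all low libraries. Fos was 54.1, 58.9, 69.2 and 52.4 CPM in the high libraries and 1905, 1834, 2170, 1231 and 1368 in the low libraries (31.9-fold lower). Its partner Jun was 126 to 148 CPM against 710 to 1665 (5.87-fold lower), the zinc-finger factor Egr1 was 111 to 174 against 699 to 1467 (7.85-fold lower), and the phosphatase Dusp1 was 52.6 to 60.1 against 259 to 443 (4.94-fold lower). HET libraries sided with WT 1 and KO 1 for these genes, as they did for Ifit1. Nr4a2 and Ier3 were the 2 counted as higher, and for both the classes overlapped once HET was included.

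Several regulators of mature β cells were lower while the hormones were not. Of 8 β cell identity genes 4 were counted as lower, each without overlap over the 9 libraries (median of the list -0.89). Over all genes tested 9.68% were counted as lower, and 14.3% had all high libraries below all low libraries. Mafa, an activator of insulin transcription, was 25.9, 41.4, 35.5 and 34.9 CPM in the high libraries and 78.6 to 163 in the low libraries (3.13-fold lower). Nkx6-1 was 188 and 230 CPM in high WT and 102 and 100 in high KO, against 286 to 374 in the low libraries (2.42-fold lower), and Nkx2-2 and Isl1 were lower by 1.08 ± 0.19 and 1.00 ± 0.12 on the log2 scale. Neurod1, another identity factor, stood on the opposite side at 0.86 ± 0.13 with no overlap, below the threshold. Of 8 islet hormone genes none was counted in either direction: Ins2 was 135718, 86266, 89957 and 149846 CPM in the high libraries and 111800 to 141061 in the low libraries. The glucagon gene Gcg was 15291 to 29076 CPM against 7479 to 12022, apart over all libraries with a log2 difference of 0.97 ± 0.32. The 8 identity genes together summed to 839 to 1265 CPM in the high class and 1432 to 1767 in the low class, without overlap. The summed level of the 8 hormones was 146431 to 238304 CPM in the high class and 176135 to 213720 in the low class.

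Among 20 genes of glucose sensing and secretion 3 were counted as lower and none as higher. Slc2a2, the glucose transporter of rodent β cells, was 308, 286, 154 and 139 CPM in the high libraries and 399 to 822 in the low libraries (2.56-fold lower). The fatty acid receptor Ffar1 was 21.9 to 46.9 CPM against 88.6 to 151 (4.20-fold lower), and the incretin receptor Gipr was 42.3 to 77.6 against 186 to 224 (3.22-fold lower). The share of the list that was counted as lower, 3 of 20, can be read against 9.68% of all genes tested, and the median of the list was -0.15.

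The largest fitted differences on the lower side belonged to genes that varied within the low class. CT010467.1, annotated as ribosomal RNA, was 127 to 339 CPM in the high libraries, 765 to 3921 in 4 low libraries and 14548 in KO 1. Lars2, the mitochondrial leucyl-tRNA synthetase, was 67.2 to 156 CPM in the high libraries and 9154 in KO 1, against 303 to 1311 in the other low libraries. For both Lars2 and CT010467.1 the library next to KO 1 was WT 1, at 1311 and 3921 CPM. At 25 weeks both were highest in KO replicate 2, at 6736 and 15299 CPM. The part of ribosomal RNA in these differences was not tested. Duox2, an epithelial oxidase, was 14.9 and 22.03 CPM in WT 1 and KO 1 but 0.0672 to 0.0867 in HET, within the range of the high libraries. The same held for Spink4 and Ly6d, epithelial genes at 11.4 to 20.8 CPM in WT 1 and KO 1 and at most 0.476 in HET.

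Markers of other cell types were examined because whole islets carry exocrine, vascular and immune cells. Of 15 acinar (digestive enzyme) markers 14 were counted as lower (median log2 -1.67), against 9.68% of all genes tested. Only 3 were separated over all 9 libraries, against 14.3% of all genes tested. The summed level of the 15 markers was 28448 to 64011 CPM in the high class and 48528 to 237599 in the low class, with the highest value in WT 1. Cela1, an elastase, was 7881, 3553, 3473 and 4654 CPM in the high libraries and 5381 to 30501 in the low libraries. The part of acinar RNA in the differences given here was not tested.

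Markers of immune cells varied widely among the high libraries. Of 15 macrophage markers 14 had a log2 difference above 0 (median 0.97). Cd68 and Cd14 were counted as higher and Cx3cr1 as lower (0.0517 to 0.675 CPM against 1.68 to 3.60, 16.0-fold lower). Among all genes tested 7.85% were counted as higher and 9.68% as lower. The summed macrophage level was 91.7 to 453 CPM in the high class and 104 to 146 in the low class, with the top value in KO 5, where Adgre1 (F4/80) was 54.2 CPM against 1.96 to 8.81 in the other high libraries. The T and NK cell markers summed to 0.569 to 47.5 CPM in the high class and 0.0672 to 14.7 in the low class, and Cd3d was at 0 in WT 3, WT 4 and KO 5. All 8 B cell markers had a difference below 0 (median -2.18), with Ighm counted as lower, and they summed to 20.7 to 317 CPM and 15.2 to 95.1 CPM, with the immunoglobulin gene Igkc at 212 CPM in KO 4. WT 4, whose macrophage sum was the lowest of the high libraries at 91.7 CPM, had Ifit1 at 1357 and Cxcl10 at 1017 CPM. The part of immune cells in the differences was not tested.

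Other supporting tissues gave fewer counts, to be read against 7.85% of all genes tested counted as higher and 9.68% as lower. Among 10 mesenchymal markers 3 were counted as lower, including Acta2, smooth-muscle actin, at 1.59 to 4.72 CPM in the high libraries, 46.6 and 64.4 in WT 1 and KO 1, and 2.38 to 7.45 in HET. Of 10 endothelial markers 9 had a difference below 0 (median -0.28) and Cdh5 was counted as higher. Of 9 duct markers 7 were below 0 (median -0.49), while Epcam was counted as higher (411 to 545 CPM against 99.2 to 156, 3.14-fold) and Muc1 lower. Of 15 cell cycle genes 2 were counted as lower, against 9.68% of all genes tested, and of 20 glycolysis and hypoxia genes 5 as higher, against 7.85%. Of 11 PRC2 subunits none was counted in either direction.

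The size of the interferon response could also be compared between genotypes, which the labels and not Ifit1 assign. Eed itself was 32.2 and 30.5 CPM in the high WT libraries and 13.1 and 14.4 in the high KO libraries, and 23.3, 14.5 and 16.7 to 20.03 in the low WT, KO and HET libraries. Over all 8-week libraries KO and WT differed for 21 of 16713 genes (0.126%; edgeR quasi-likelihood test, Benjamini-Hochberg adjusted p under 0.05), all of them higher in KO, and none was in an interferon list (lowest adjusted p 0.120). With the interferon class as a further term the same test called 235 genes (1.41%), 192 higher and 43 lower in KO, and these included all 21. DESeq2 called 344 genes in the fit without the class term. Both edgeR counts depended on single libraries: without WT replicate 3 or 4 the first was 2, and without KO replicate 1 it was 36, while the second was 16 to 20 without any 1 of the 4 high libraries, 64 without HET replicate 3, 125 without HET replicate 1, 130 without KO replicate 1 and 323 without HET replicate 2. For the first count the values were 5 and 7 without KO replicates 4 and 5, 8 without WT replicate 1, and 9 and 11 without HET replicates 1 and 3. With the class term Eed fell by 1.01 on the log2 scale in KO (adjusted p = 0.0301, edgeR) and without it by 1.02 (adjusted p = 0.0898). Igf2, a fetal growth factor, rose in KO without the class term (log2 4.45, edgeR adjusted p = 5.74e-04). In the fit with the class term 5 interferon-list genes rose in KO: Mx1 by 1.82 (adjusted p = 0.0188), Gbp5 by 1.26 (0.0293), Cxcl11 by 1.32 (0.0301), Socs3 by 0.87 (0.0368) and Cx3cl1 by 0.72 (0.0477), all on the log2 scale with edgeR.

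Restricting the comparison to the high class, 2 KO against 2 WT libraries in the fit of all 9, was chosen after the values were seen. It called 85 genes higher (0.441%) and 26 lower (0.135%) in KO at an edgeR adjusted p under 0.05. Of the 202 interferon-list genes 9 rose and none fell. Icam1 rose most among them, by 2.49 ± 0.21 on the log2 scale (edgeR adjusted p = 0.0147), followed by Isg15 at 1.64 (0.0471) and Mx1 at 1.53 (0.0308). The MHC class II genes H2-Ab1 (1.48, edgeR adjusted p = 0.0478) and Cd74 (1.20, 0.0400) also rose, and Ccl2, Cxcl11, Gbp5 and Ifi47 completed the 9. The fitted KO-over-WT difference was above 0 for 178 of the 202 genes, with a median of 0.64 against -0.01 for all genes tested. Markers of immune cells stood on the same side in this comparison: the difference was above 0 for 15 of 15 macrophage markers (median 1.95), 9 of 9 T and NK cell markers (4.57) and 7 of 8 B cell markers (1.26), none of them called, and for 7 of 7 MHC class II genes (1.18). Their part in the interferon-list difference was not tested. Without any of the 4 high libraries in turn at most 2 genes of the whole table were called, while 164 to 188 of the 202 stayed above 0. Without HET replicate 1, 2 or 3 the calls were 51, 660 and 25, since these libraries enter the estimate of the spread. Rsad2 was among the exceptions, at 932 and 1042 CPM in KO against 954 and 1139 in WT.

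Whether the difference between high and low libraries itself depended on genotype was tested with an interaction term. No gene was called (edgeR, lowest adjusted p 0.341), with 1326 genes at an unadjusted p under 0.05. Without a filter on low counts 66 genes were called. Each of WT and KO entered this test with 1 low library.

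The 25-week libraries, 3 WT, 2 HET and 2 KO, were not used to define the classes. By the paper each 25-week KO replicate pooled the islets of several mice. It also reports that all KO mice were overtly diabetic by that age. The part of pooling or of diabetes in the values below was not tested. Ifit1 was 4.22 to 8.86 CPM of the total count in 6 of the 7 and 36.5 in KO replicate 3. That library also had the highest level of Il6 (41.0 CPM), Cxcl10 (39.2), Ccl2 (20.02) and Stx11 (17.3) among the 7, against at most 2.53, 15.4, 2.56 and 2.72 in the others. Other interferon-list genes peaked elsewhere. Ifit3 was 14.9 CPM in WT replicate 2 against 7.60 in KO replicate 3, and Mx2 was 6.32 in WT replicate 3 against 3.90. Ifnb1 was 4.41 CPM in HET replicate 1 against 1.95 in KO replicate 3. As a description over 7 libraries that share genotype groups and depth, log2 levels were centred within genotype and then correlated with those of Ifit1. The correlation was positive for 82.2% of the interferon-list genes that were higher at 8 weeks (120 of 146) and 85.1% of the other higher genes (1162 of 1366). It was positive for 34.96% of the lower genes (652 of 1865) and 53.2% of all genes. Without KO replicate 3 the shares were 71.9%, 63.2%, 52.3% and 51.4%, so the separation of higher from lower genes rested largely on that library. The remaining KO library then carried no information, because it was centred on itself.

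The chromatin states of wild-type islets were set beside the lists. The states are the letters of a segmentation of the genome in 200 bp bins made by the study, and the letter at each gene's start site was read. State A, an active start site, covered 41.5% of the start sites of higher genes outside the interferon lists, 25.0% of those of the higher interferon-list genes and 18.9% of those of lower genes, against 35.4% of all 18507 tested genes with a state. State L, a bivalent state with active and Polycomb marks, covered 16.7% of the interferon-list genes and 23.5% of the lower genes against 13.6% of all. Ifit3, Cxcl10, Rsad2, Isg15 and Gbp6 started in state L, Irf7 in state A, and Ifit1 in state B. State K held 9.72% of the interferon-list start sites against 2.50% of all, Gbp5 and Gbp11 among them. The states describe wild-type islets as a group and were not measured in the libraries compared here.

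**Figure D5:**
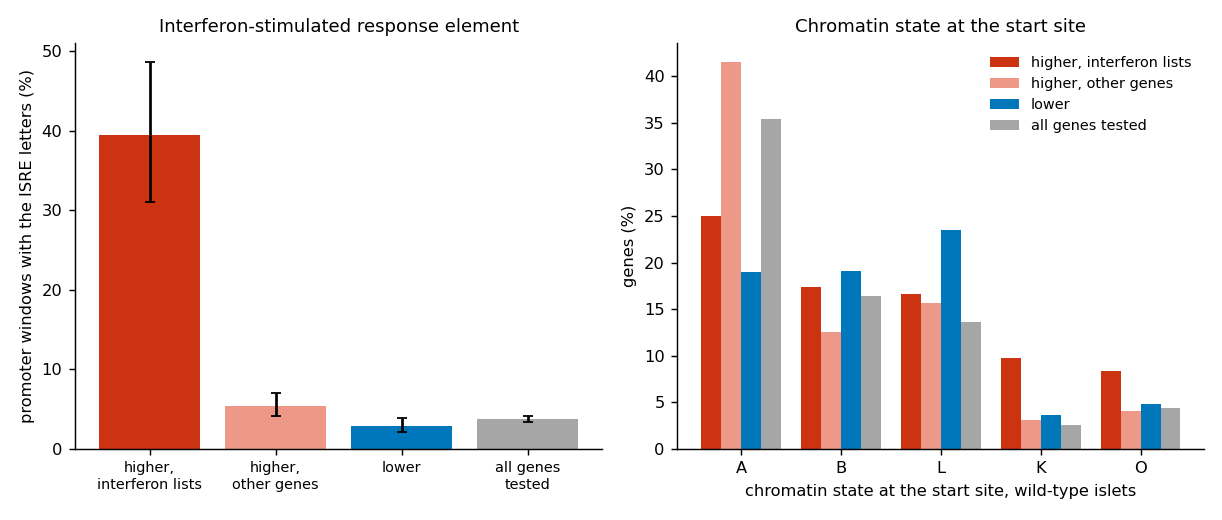
Share of promoter windows holding the ISRE letters, with Wilson 95% intervals as bars, and share of start sites in chromatin states A, B, L, K and O, for higher interferon-list genes, other higher genes, lower genes and all genes tested. The interferon-list genes hold the letters in 39.5% of windows against 3.74% of all genes tested.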

How the data were processed

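RNA-seq libraries of whole islets were compared at 8 weeks. The authors deposited a table of raw counts. Paired reads had been aligned to GRCm38 by TopHat (version 2.0.13) and counted over Gencode M9 genes by featureCounts (Subread 1.5.0-p1); whether strand was used is not given in the sources used here. The deposited chromatin states (EpicSeg letters in 200 bp bins) carry no measured level. The total count per library at 8 weeks was 11825016 to 22925359, 11825016 to 18720941 in the interferon-high and 14601864 to 22925359 in the interferon-low class. Intervals and floors of 3 reads cover counting error only. No count column was left unused (0).

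The counts were fitted with edgeR 4.0.16 (R 4.3.3, limma 3.58.1), TMM factors, filterByExpr and a quasi-likelihood fit of genotype and interferon class to all 9 libraries (biological coefficient of variation 0.364). DESeq2 1.42.0 served as an alternative. The standard error was derived from the F statistic and the log2 difference; for the class contrast it describes spread and is no test. The replicates are mice or pairs of mice, except the 25-week KO replicates, which by the paper are pools of several mice.

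Named genes are the 15 largest differences among genes counted as higher in the interferon lists, as higher outside them, and as lower, plus Ifit1, Eed and list members. The members, lists and tests were chosen with earlier results of these data known. Names and positions come from Gencode M21, a later release on the same build (47224 of 47937 identifiers matched), and promoter windows from RefSeq.

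No pair of libraries of a group agreed within sampling noise (chi-square per degree of freedom 35.5 to 351). Scripts were tested on simulated counts. The other data types of the series were not used here. Some genes of the lists are counted but not reported here.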

Additional observations from a re-analysis of the deposited data

Results flagged for a closer look

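Of 92 groups tested (46 named genes in each class), 25 had a library far from the rest of its class by Dixon's ratio. The threshold flags about 1 group in 20 for independent, normally distributed values. That rate does not apply here, because most of the genes were named for large differences in these same libraries. All values are TMM-scaled CPM. KO replicate 1, in the low class, stood above the other low libraries for CT010467.1 at 14548, Lars2 at 9154, Gm23935 at 1828, ENSMUSG00000089855.1 at 463, Gm24187 at 337, Gm24270 at 303 and Gm43361 at 22.996. The 3 of these named Gm24270, Gm23935 and Gm24187 are annotated as miRNA genes.

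In the high class KO replicate 5 stood apart for Saa3 at 376, Mx2 at 110, Acod1 at 58.4 and Clec4e at 12.7. KO replicate 4 stood apart for Ereg at 25.9, Spink4 at 2.89, 2210407C18Rik at 1.66, Cldn2 at 1.52, Ly6d at 0.930 and Duox2 at 0.636. WT replicate 3 stood apart for Ctrc at 328, a chymotrypsin of acinar cells, and for Ucp1 at 44.5.

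In the low class HET replicate 2 stood apart for Ucp1 at 842, Lipg at 1.39 and Ifi205 at 1.34, HET replicate 3 for Stx11 at 1.68, and WT replicate 1 for 2210407C18Rik at 41.7 and for Ereg at 0.0620, which is a single read.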

How the results depend on the processing

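The class contrast kept its direction under the alternatives in scaling, filter and tool, with 1494 to 2147 genes counted as higher and 1739 to 2202 as lower when libraries were left out singly. The counts moved with the thresholds of the rule: 2856 higher and 3381 lower at 1.5-fold, 500 and 367 at 4-fold, and 962 lower at a minimum of 5 CPM. With a replicate block they were 1442 and 1900, of which 1159 and 1311 were shared with the fit without it. The labels do not say what the replicate numbers share. WT and KO libraries with the same number deviated together from their genotype means (correlation 0.524 for replicates 1 and 0.243 for replicates 4). So did WT and KO libraries of different numbers within the high class (0.0880 to 0.516). Levels were centred within genotype and not within class, so the class split itself enters these correlations. They cannot tell whether the numbers mark shared batches, and without such a label the numbers were not taken as pairs. Of 828 values of 46 named genes under alternatives, 652 moved by less than 1 SD of the replicates, 174 moved further and 2 reversed: Ucp1 without the genotype term (-3.89) and Ctrc with the replicate block (2.96). The cause was not tested. KO against WT at 8 weeks called 235 genes with the class term, 63 with library-size scaling, 40 with no filter, 344 with DESeq2, 1 with the replicate block and 2 to 36 with libraries left out singly. KO against WT within the high class called 821 with no filter, and 0 to 660 with libraries left out singly: 51 without HET 1, 660 without HET 2, 25 without HET 3 and at most 2 without a high library. With a C required after the ISRE letters they were in 28.1% of the interferon-list promoters, against 1.01% of all genes tested. Over the gene body state A covered 0.962% of the higher genes, against 0.886% of all genes tested. Only 1 low library stands behind each of WT and KO, which limits every difference between the classes.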
